A study of Mus musculus with 12 samples.

Results

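The 10 genes described here encode parts and regulators of the smooth muscle contractile apparatus, with the cardiac troponin subunit gene Tnni3 beside them. They were found by NCBI Gene ID in a table of 22221 gene entries, and all 10 were present: Myh11, Cnn1, Tagln, Des, Myl9, Tpm2, Lmod1, Mylk, Smtn and Tnni3. The choice of members was made with their values in busulfan and untreated testes known, so those differences are given as a description with no test. All 10 also passed the filter for testing, at least 1 FPKM in at least 3 libraries, as did 15472 entries in all.

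Whole-testis RNA of ICR mice, which are outbred, was sequenced as 12 libraries, 3 for each of 4 groups. IMA10 mice were given busulfan once, when 3 weeks old, and then, for 2 weeks, gut microbiota from donor mice given a compound labelled Aligina Oligosaccharide at 10 mg/kg body weight. IMC mice received the same busulfan and gut microbiota from donors given ddH2O. Sa mice received the same busulfan and then saline. Con mice were untreated, and their age is not stated. Testes of the treated mice were taken after another 3 weeks. Busulfan, which alkylates DNA, kills dividing germ cells, so a testis some weeks later holds fewer of their descendants, the spermatids. Whether the 3 libraries of a group came from separate animals is not labelled, so p-values here refer to the spread among these libraries alone, and that spread may be technical. The submitters speak of cultured testis without naming a culture step.

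In the testis, smooth-muscle-like peritubular myoid cells wrap each seminiferous tubule and contract to move its contents, and vascular smooth muscle surrounds the arterioles. In such cells, calcium and calmodulin activate myosin light chain kinase, which phosphorylates the regulatory light chain of myosin, and myosin then pulls on actin filaments that carry tropomyosin and calponin. Troponin takes the place of this switch in striated muscle, where its inhibitory subunit blocks contraction until calcium binds the complex. Transcription of many smooth muscle genes depends on serum response factor, which binds a DNA element called the CArG box.

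RefSeq promoters (GRCm38.p6) were at hand for 8 of the 10 members, all but Myh11 and Tagln, and were searched on both strands for a CArG box in the 200 bases from 250 to 51 bases before the start site. Only the Myl9 promoter held one, which is 1 of 8 (12.5%), against 380 of 32851 promoters of all genes (1.16%). Its centre lay 156 bases before the start site, and a second box with 1 mismatch lay 94 bases before it. A mismatch was allowed only between the outer CC and GG of the box, so boxes with a changed CC or GG were not counted. Boxes with 1 such mismatch were in 1999 of all promoters (6.09%). The Myl9 stretch (chr2:156775283-156775394, plus strand) is shown because it holds both boxes, each in capitals. The Tnni3 window (chr7:4522579-4522778, minus strand) is shown because Tnni3 had the largest difference from untreated testes, and it holds neither box. A stretch of the promoter of Acta2 (chr19:34255428-34255477, minus strand), the smooth muscle actin gene used below for comparison, has a box with 1 mismatch in capitals.
Myl9: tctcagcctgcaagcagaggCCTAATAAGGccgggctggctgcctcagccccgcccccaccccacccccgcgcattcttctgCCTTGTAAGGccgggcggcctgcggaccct
Tnni3: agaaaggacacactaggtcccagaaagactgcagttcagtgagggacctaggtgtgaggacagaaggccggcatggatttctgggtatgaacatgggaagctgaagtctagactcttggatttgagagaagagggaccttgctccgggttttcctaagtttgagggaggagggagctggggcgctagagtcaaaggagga
Acta2: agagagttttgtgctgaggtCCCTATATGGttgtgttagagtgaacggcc
A match describes letters in the window and is not evidence of binding, and no match says only that the letters are absent from it.

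Levels are the authors' FPKM, which divides the fragments of a gene by its length and by the total of the library. Counts are not part of the table, which leaves sequencing depth unknown and allows no counting interval. Summed FPKM was 476127 to 519355 in the busulfan libraries and 569055 to 576093 in the Con libraries. The IMA10 library of replicate 3 stood apart. On the first principal component of all tested genes, which held 88.6% of the variance, it lay at -81.1, against 24.2 to 127.6 for the other busulfan libraries and -167.4 to -161.2 for Con. Its summed level of 13 spermatid genes was 4152.4 FPKM, against 44.4 and 95.8 FPKM in the other IMA10 libraries, 163.2 to 363.0 FPKM in IMC, 275.1 to 2375.5 FPKM in Sa and 44414.2 to 46923.8 FPKM in Con. IMA10 is therefore compared with the other groups with and without that library, or its libraries are given one by one. The Con columns carry another name prefix in the table than the busulfan columns, so a batch and the untreated state cannot be told apart. Because the age of the Con mice is not stated, a difference in age cannot be told apart from the untreated state either.

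Myh11 encodes the smooth muscle myosin heavy chain, the motor of the contractile filament. Its level was 37.40, 38.23 and 15.64 FPKM in IMA10, 40.18, 36.19 and 37.32 FPKM in IMC, 36.59, 45.33 and 58.62 FPKM in Sa, and 7.49, 9.17 and 7.63 FPKM in Con. All 9 busulfan libraries lay above the 3 Con libraries, with IMA10 replicate 3 lowest among them, while the 3 busulfan groups overlapped one another. Group means were 30.4 ± 12.8 FPKM in IMA10 (37.8 FPKM without replicate 3), 37.9 ± 2.06 FPKM in IMC, 46.8 ± 11.1 FPKM in Sa and 8.1 ± 0.932 FPKM in Con (SD, n = 3), and the Sa mean was 5.79 times the Con mean.

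Myl9 encodes a regulatory light chain of myosin, the protein that myosin light chain kinase phosphorylates, and had the highest FPKM of the 10 members in every library. Its level was 619.25, 515.11 and 135.05 FPKM in IMA10, 496.41, 437.65 and 516.71 FPKM in IMC, 375.01, 394.05 and 510.31 FPKM in Sa, and 54.56, 55.63 and 43.04 FPKM in Con. The highest value was in IMA10 replicate 1 and not in Sa, and all busulfan libraries lay above Con. Myl9 alone made up 50.1% to 55.6% of the summed FPKM of the 10 members in every library. Its near-identical paralogs Myl12a and Myl12b had 225 ± 19.4 and 182 ± 19.2 FPKM in Sa, against 38.7 ± 3.86 and 40.1 ± 1.36 FPKM in Con (SD, n = 3), and reads could be split among the 3 genes.

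Mylk encodes the kinase that switches smooth muscle contraction on. Its level was 37.58, 38.07 and 14.35 FPKM in IMA10, 36.54, 32.08 and 34.46 FPKM in IMC, 30.98, 40.71 and 44.60 FPKM in Sa, and 7.25, 8.0 and 7.30 FPKM in Con. Con libraries lay within 1 FPKM of each other, and all busulfan libraries were above them.

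Tagln encodes transgelin, an actin-binding protein abundant in smooth muscle. It had 49.80, 49.57 and 22.34 FPKM in IMA10, 52.52, 44.48 and 57.56 FPKM in IMC, 45.92, 54.69 and 69.68 FPKM in Sa, and 8.22, 9.80 and 8.90 FPKM in Con. As for Myh11, Sa replicate 3 was highest, IMA10 replicate 3 was the lowest busulfan library, and Con lay below all of them. Cnn1 encodes calponin 1, an actin-binding inhibitor of the myosin ATPase. Its levels were 13.08, 14.38 and 6.30 FPKM in IMA10, 15.71, 15.39 and 11.49 FPKM in IMC, 11.06, 14.73 and 20.84 FPKM in Sa, and 3.35, 3.10 and 2.81 FPKM in Con. Its Sa to Con ratio of 5.04 was the lowest of the 10 members.

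Tpm2 encodes beta-tropomyosin, which lies along the actin filament. It had 44.78, 43.76 and 14.34 FPKM in IMA10, 49.21, 43.41 and 51.83 FPKM in IMC, 41.53, 49.38 and 64.89 FPKM in Sa, and 6.78, 7.59 and 6.06 FPKM in Con. All busulfan libraries were above Con, and the busulfan groups overlapped. Lmod1 encodes leiomodin 1, which starts new actin filaments in smooth muscle. In FPKM it was the lowest member in every library but Con replicate 3, with 7.05, 7.32 and 2.27 FPKM in IMA10, 7.19, 5.70 and 6.48 FPKM in IMC, 6.0, 8.29 and 9.75 FPKM in Sa, and 1.11, 1.43 and 1.18 FPKM in Con. At these low values the log2 scale with 1 FPKM added understates the ratio.

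Des encodes desmin, the intermediate filament protein of muscle. Its levels were 15.56, 14.49 and 4.25 FPKM in IMA10, 16.53, 15.0 and 16.38 FPKM in IMC, 13.78, 18.86 and 22.28 FPKM in Sa, and 2.93, 2.55 and 2.00 FPKM in Con. IMA10 replicate 3 lay nearer to Con than to the other busulfan libraries. Smtn encodes smoothelin, a cytoskeletal protein of contractile smooth muscle. It had 22.31, 16.06 and 6.01 FPKM in IMA10, 14.21, 16.30 and 16.67 FPKM in IMC, 15.89, 17.98 and 23.62 FPKM in Sa, and 2.26, 2.61 and 2.13 FPKM in Con. IMA10 replicate 1 and Sa replicate 3 were its highest libraries.

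Tnni3 encodes cardiac troponin I, the inhibitory troponin subunit of heart muscle. Its level was 328.45, 205.75 and 34.68 FPKM in IMA10, 167.53, 189.17 and 180.54 FPKM in IMC, 133.85, 142.34 and 177.08 FPKM in Sa, and 6.38, 3.03 and 0.32 FPKM in Con. All busulfan libraries were above Con, IMA10 replicate 1 was highest, and the Con values spread more widely in proportion than those of any other member. The means were 190 ± 148 FPKM in IMA10 (267 FPKM without replicate 3), 179 ± 10.9 FPKM in IMC, 151 ± 22.9 FPKM in Sa and 3.24 ± 3.04 FPKM in Con (SD, n = 3). In FPKM, Tnni3 was second to Myl9 among the members in every busulfan library, while in Con it stood below Myh11 and Tagln. Its share of the members' summed FPKM was 13.6% to 27.9% in IMA10 (lowest in replicate 3), 18.7% to 22.6% in IMC, 17.7% to 18.8% in Sa and 0.393% to 6.36% in Con.

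**Figure D1:**
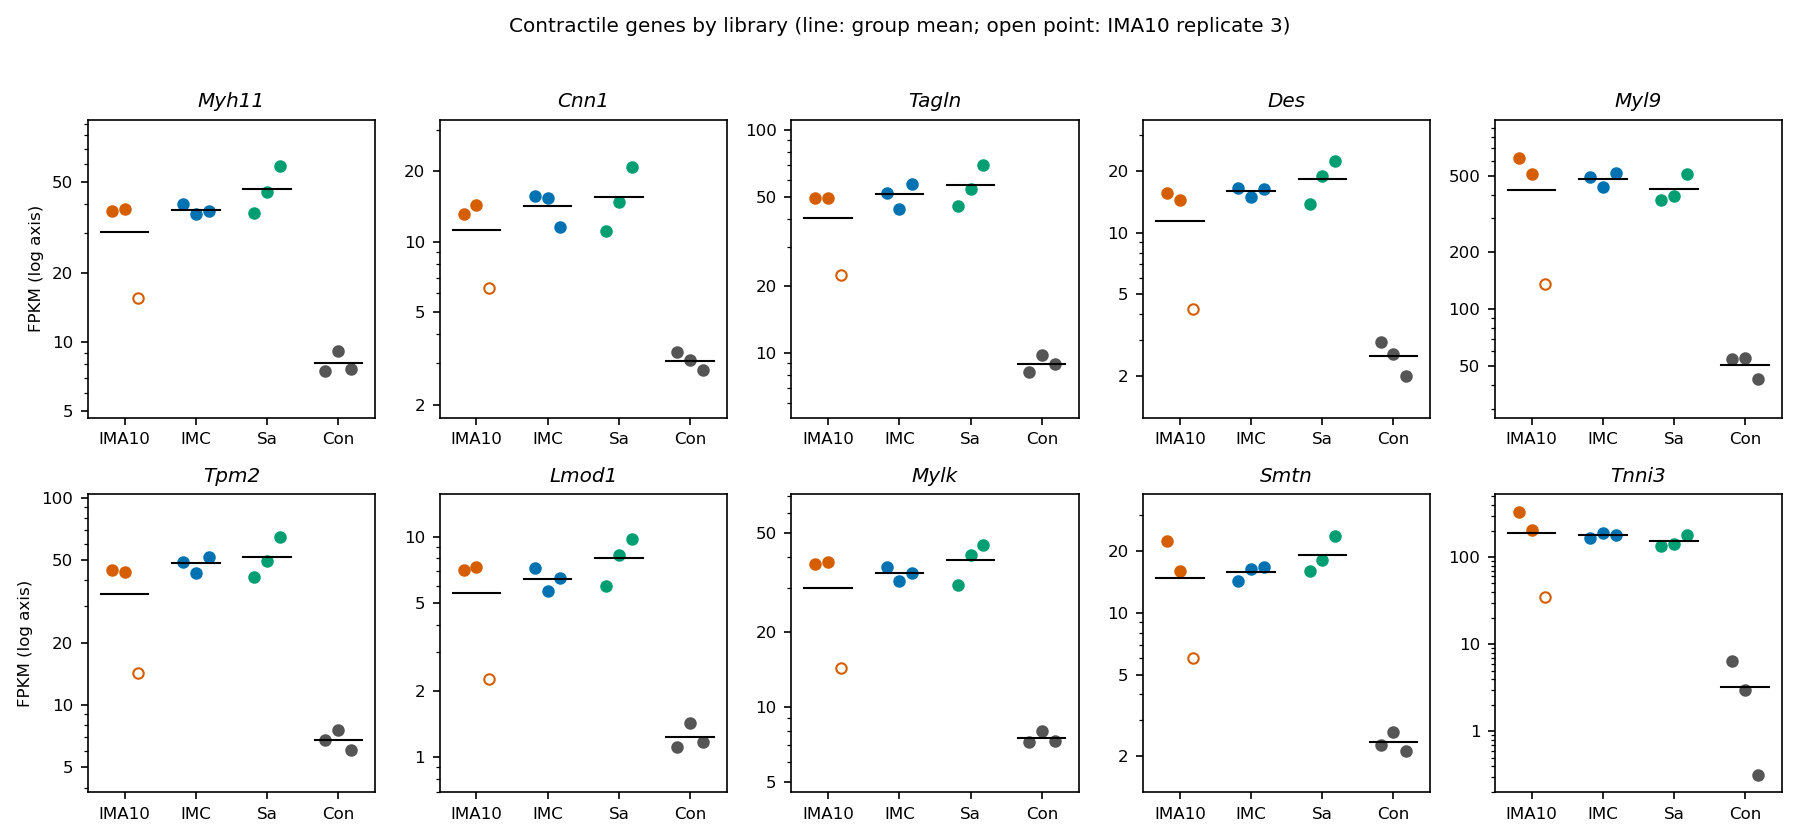
FPKM of the 10 members (log axis, own scale for each gene) in the libraries of IMA10, IMC, Sa and Con, with a line at each group mean and an open point for IMA10 replicate 3. All busulfan libraries lie above Con in each panel, and IMA10 replicate 3 is the lowest busulfan library for all 10 genes.

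For each of the 10 members, every library of IMA10, IMC and Sa lay above every Con library. The same held for 49.3%, 55.1% and 56.9% of all tested genes in IMA10, IMC and Sa, and for 53.9% in IMA10 without replicate 3. Since the members were chosen on these values, nothing is read from the count. The ratio of means to Con ranged from 3.65 to 58.5 in IMA10 (median 4.55), from 4.57 to 55.2 in IMC (median 6.08) and from 5.04 to 46.6 in Sa (median 6.9). Without IMA10 replicate 3 the IMA10 range was 4.45 to 82.4, with a median of 5.91. Tnni3 was the highest in each range, and the 9 other members stayed between 5.04 and 8.35 in Sa. In bulk tissue, more cells of a type and more RNA per cell cannot be told apart.

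FPKM is relative to the library total, and the spermatid transcripts that filled much of the Con total were at 0.166%, 0.312% and 9.34% of their Con level in the 3 IMA10 libraries, at 0.488% to 0.904% in IMC and 0.866% to 5.77% in Sa (median over 13 genes). The median log2 difference of all tested genes between Sa and Con was 0.60, and scaling by the median of ratios moved it to -0.02. The members' median log2 difference was 2.48 (range 1.98 to 5.47) and their range was 1.30 to 4.86 after that scaling, all 10 positive under both. Genes of other testis cell types stood high beside the members. The median level in Sa, as a percent of the Con mean, was 532% to 840% for the members, 1171% to 1532% for 15 Sertoli cell genes, 665% to 1488% for 11 Leydig cell genes, 781% to 1097% for 13 macrophage genes, 485% to 784% for 14 endothelial genes and 551% to 835% for 12 genes of pericytes and vascular mural cells. Their part in the members' levels was not tested. On the log2 scale the median of the members minus the median of the Sertoli genes was -1.18, -1.06 and -0.32 in the 3 IMA10 libraries, -0.92 to -0.65 in IMC, -0.23 to -0.10 in Sa and -0.06 to 0.18 in Con.

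The comparisons among the busulfan groups, which the choice of members did not use, ask whether transferred microbiota changed these genes. No member passed in any of them, and in none did the groups separate. Differences are on the log2(FPKM + 1) scale with limma's standard error, and adjusted p-values are Benjamini-Hochberg values over all 15472 genes. In IMA10 against Sa, 0% of all genes were called (928 at an unadjusted p under 0.05), and 0.633% had all IMA10 libraries above and 7.17% below all Sa libraries. All 10 members had a negative difference, with a median of -0.52 against -0.19 for all genes. Des was at -0.78 ± 0.39 (adjusted p = 0.87), Tpm2 at -0.72 ± 0.37 (adjusted p = 0.893) and Myh11 at -0.68 ± 0.31 (adjusted p = 0.839, the smallest of the members). Tnni3 had the smallest difference, -0.17 ± 0.78 (adjusted p = 0.985).

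These differences rested on IMA10 replicate 3, whose members were at 13.0% (Tnni3) to 45.9% (Cnn1) of the mean of the other IMA10 libraries, with a median of 32.0%. Without it, 32.0% of 15412 genes were called in IMA10 against Sa, 7.38% higher and 24.7% lower, and again no member passed. Myl9 then had a difference of 0.42 ± 0.17 (unadjusted p = 0.0311, adjusted p = 0.0791) and Tnni3 one of 0.79 ± 0.56 (adjusted p = 0.297). Both remaining IMA10 libraries exceeded all 3 Sa libraries for these members and no others, as they did for 19.0% of all genes. The other 8 members lay between -0.28 ± 0.17 for Myh11 (adjusted p = 0.237) and 0.00 ± 0.18 for Smtn (adjusted p = 0.994).

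In IMC against Sa no member passed, and 0% of all genes were called (134 at an unadjusted p under 0.05). All 3 IMC libraries lay above all Sa libraries for 3.32% of all genes and below them for 6.02%. The members ranged from -0.27 ± 0.31 for Myh11 to 0.25 ± 0.78 for Tnni3, each with an adjusted p of 1, and Myl9 at 0.19 ± 0.46 was the other positive member. The median was -0.14 for the members and -0.06 for all genes. All libraries share the estimate of the spread, and without IMA10 replicate 3 again no gene was called (1241 at an unadjusted p under 0.05), with 0.627 as the smallest adjusted p among the members (Myh11).

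In IMA10 against IMC, 0% of all genes were called (328 at an unadjusted p under 0.05), and 0.478% had all IMA10 libraries above and 2.88% below all IMC libraries. The members ranged from -0.64 ± 0.37 for Tpm2 to -0.25 ± 0.37 for Smtn, each with an adjusted p of 1. Without IMA10 replicate 3, 2 genes were called (0.0130%), neither of them a member. The members then ranged from -0.11 ± 0.17 for Tpm2 to 0.54 ± 0.56 for Tnni3, with 0.409 as the smallest adjusted p (Smtn, 0.26 ± 0.18). The remaining IMA10 libraries exceeded all IMC libraries for Mylk and Tnni3 only, as they did for 13.3% of all genes.

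**Figure D2:**
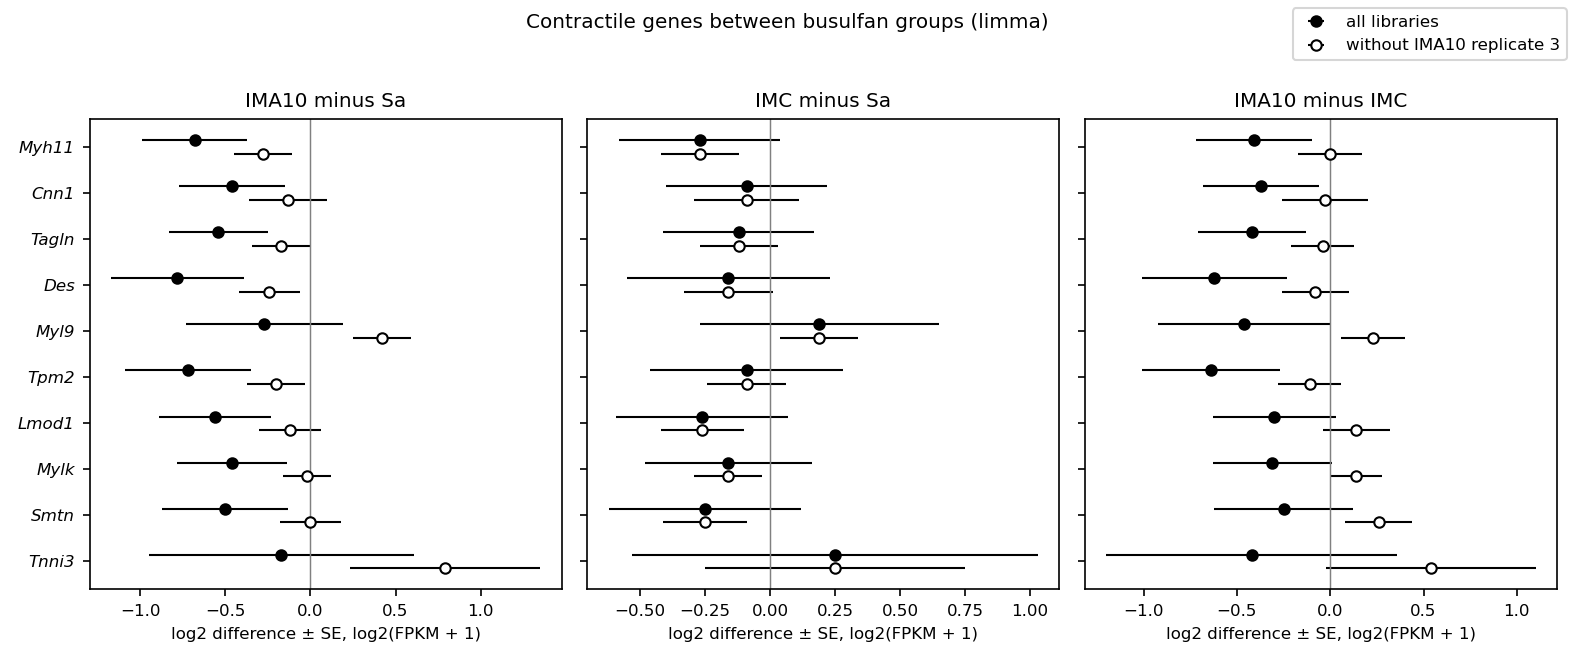
Difference between busulfan groups for the 10 members, in log2(FPKM + 1) with limma's standard error, from all 12 libraries (filled) and without IMA10 replicate 3 (open). Leaving out that library moves Myl9 in IMA10 against Sa to 0.42 and Tnni3 to 0.79, and no member passes in any panel.

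Across the busulfan libraries the members did not all follow the same pattern. As a percent of the Sa mean, the median of the 8 members other than Myl9 and Tnni3 was 87.0%, 85.8% and 32.4% in IMA10, 91.4%, 82.3% and 87.9% in IMC, and 79.0%, 96.6% and 123% in Sa. Tnni3 was at 217%, 136% and 23.0% in IMA10, 111%, 125% and 119% in IMC, and 88.6%, 94.2% and 117% in Sa. Myl9 was at 145%, 121% and 31.7% in IMA10, 116%, 103% and 121% in IMC, and 87.9%, 92.4% and 120% in Sa. Thus both genes stood above the Sa mean in the first 2 IMA10 libraries and in all IMC libraries, where the median of the other members stood below it. Tnni3 and Myl9 were set apart with these values known, so the split is a description only. Single other members also exceeded their Sa mean: Smtn in IMA10 replicate 1 (22.31 against 19.2 FPKM), Tagln in IMC replicate 3 (57.56 against 56.8 FPKM) and Cnn1 in IMC replicate 1 (15.71 against 15.5 FPKM).

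The 15 Sertoli genes had medians of 173%, 142% and 28.7% in IMA10, 118%, 109% and 124% in IMC, and 91.4%, 96.1% and 113% in Sa. The 14 endothelial genes had medians of 87.7%, 81.6% and 27.4% in IMA10, 79.6%, 74.4% and 92.1% in IMC, and 82.1%, 90.3% and 128% in Sa. Tnni3, Myl9 and the Sertoli median thus stood above the Sa mean in IMA10 replicates 1 and 2 and in IMC, and the median of the other 8 members stood below it there, as did the endothelial median. This describes 9 libraries and was not tested. With all libraries none of the 15 Sertoli genes was called in IMA10 against Sa (2 higher and 13 lower, median -0.15). Without IMA10 replicate 3, a library set apart on its values, 12 were called higher (median 0.64), against 7.38% of all genes. Each of the 8 members other than Myl9 and Tnni3 was highest in Sa replicate 3 among all 12 libraries.

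**Figure D3:**
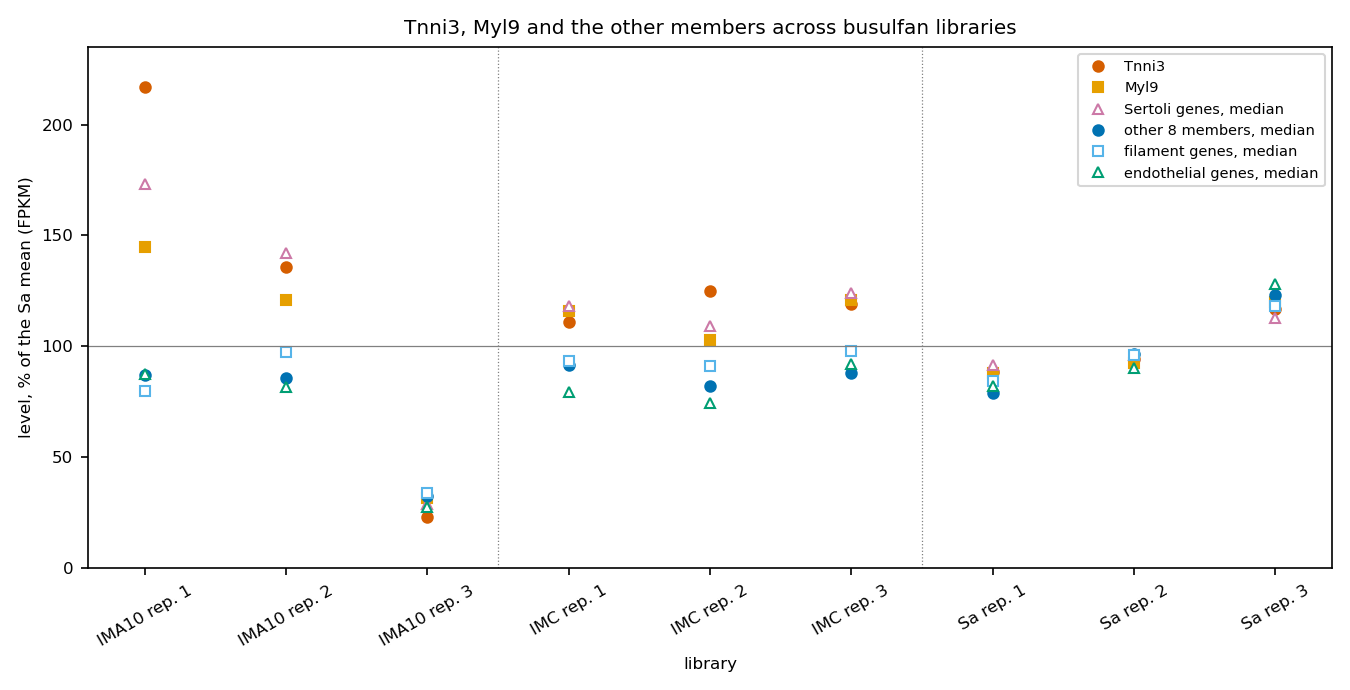
Level in each busulfan library as a percent of the Sa mean (FPKM), for Tnni3, Myl9, the median of the other 8 members and the medians of 15 Sertoli, 23 filament and 14 endothelial genes. In IMA10 replicates 1 and 2, Tnni3 (217% and 136%), Myl9 (145% and 121%) and the Sertoli median lie above 100%, and the other medians lie below it.

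Likeness of profiles was measured as the root mean square difference of centred log2 values over all 12 libraries, which is dominated by the difference between busulfan and Con libraries, so it is given with no test. Of the members, Tagln (0.094), Myh11 (0.108), Des (0.129), Tpm2 (0.132), Mylk (0.134) and Smtn (0.142) lay nearest to the median profile of the 10. Lmod1 (0.244), Cnn1 (0.253) and Myl9 (0.405) lay farther off, and Tnni3 (1.554) farthest. Of 11150 other genes that reached 5 FPKM in a library, the nearest to this profile were Flna (0.086), Ckb (0.107), Esyt1 (0.108), Slc25a51 (0.109) and Extl3 (0.11). Flna encodes filamin A, which crosslinks actin, and Ckb the brain creatine kinase. Those nearest to Tnni3 were Timp1 (0.573), Serpina5 (0.595), Ly6e (0.605), Cpe (0.608) and Aqp5 (0.645). These distances are to a single gene and the former ones to a median of 10, so their sizes are not compared. Timp1 inhibits metalloproteinases and Aqp5 is a water channel.

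Over the 8 busulfan libraries without IMA10 replicate 3, a choice made after the values were seen, the genes nearest to the members were Atp2a3 (0.048), Itga7 (0.056), Acta2 (0.058), Pbxip1 (0.064) and Csrp1 (0.072). Itga7 encodes an integrin subunit of muscle, and Csrp1 a LIM protein of smooth muscle. Those nearest to Tnni3 were Drd4 (0.106), Ldhb (0.11), Sema6c (0.114), Smim26 (0.12) and Clip3 (0.121), and its distance to Myl9 was 0.206, against 0.327 to 0.464 for the other members. Of the 11150 other genes, 5146 lay nearer to Tnni3 than the median of the members did, counting Tnni3 itself. For the members' median profile that number was 9. Drd4 encodes a dopamine receptor and Ldhb a lactate dehydrogenase subunit.

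Other genes of the filament and its anchorage were tested in Sa against Con, where 52.0% of all 15472 genes were called higher and 19.2% lower. These are 8052 and 2963 genes, against 5847 higher and 6069 lower with median-of-ratios scaling and 5699 higher and 4514 lower with quantile normalization. The gene lists were chosen with results of these data known, so their counts against Con are read beside these shares and are not independent evidence of a direction. Of 23 tested, 17 rose and 2 fell, with a median difference of 2.11 against 0.60 for all genes. With median-of-ratios scaling 17 rose and 4 fell, and with quantile normalization 17 rose and 3 fell. Acta2, the smooth muscle alpha-actin of myoid cells and arterioles, had 197.92, 220.34 and 78.93 FPKM in IMA10, 228.93, 199.51 and 205.37 FPKM in IMC, 192.39, 232.71 and 308.55 FPKM in Sa, and 30.79, 34.04 and 26.02 FPKM in Con. As for Myh11 and Tagln, Sa replicate 3 was its highest library and IMA10 replicate 3 its lowest busulfan library. It rose by 2.95 ± 0.35 in Sa (adjusted p = 0.000288, limma). Myl6, a light chain of smooth muscle and non-muscle myosin with the highest level of the list in Sa (417 ± 45.9 FPKM in Sa, 105 ± 11.0 FPKM in Con), rose by 1.98 ± 0.32 (adjusted p = 0.000445, limma). Flna rose by 2.57 ± 0.31 (adjusted p = 0.000298, limma).

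Actg2, the smooth muscle gamma-actin, known in the mouse testis also from haploid germ cells, ran the other way. It had 13.15, 14.06 and 48.14 FPKM in IMA10, 27.75, 19.03 and 18.10 FPKM in IMC, 33.61, 22.43 and 26.56 FPKM in Sa, and 259.57, 243.92 and 249.99 FPKM in Con. Every busulfan library lay below Con, IMA10 replicate 3 was the highest of them, and the gene fell by 3.16 ± 0.41 in Sa (adjusted p = 0.000351, limma). Its Con level was above that of Acta2, and the summed level of the 13 spermatid genes was likewise above all busulfan libraries in Con and, among those, highest in IMA10 replicate 3. Their part in the Actg2 level was not tested. Lpp, a focal adhesion protein enriched in smooth muscle, also fell, by 3.05 ± 0.28 (adjusted p = 0.000107, limma), with 1.23, 1.59 and 4.15 FPKM in IMA10, 1.70, 1.30 and 1.57 FPKM in IMC, 2.87, 2.56 and 1.86 FPKM in Sa and 27.61, 26.87 and 27.08 FPKM in Con. Myh10, a non-muscle myosin heavy chain, was at -1.13 ± 0.63 (adjusted p = 0.127, limma) and passed as lower under both other scalings (adjusted p = 0.0248 and 0.0282).

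Of 17 genes that regulate contraction, 12 rose and none fell. Under median-of-ratios scaling 11 rose and 4 fell. Rhoa, the GTPase that keeps myosin phosphatase in check, had 188 ± 11.2 FPKM in Sa, against 46.7 ± 0.427 FPKM in Con (SD, n = 3), and rose by 1.98 ± 0.25 (adjusted p = 0.00035, limma). The phosphatase inhibitor Ppp1r14a rose by 2.73 ± 0.43 and the phosphatase subunit Ppp1cb by 1.52 ± 0.24 (adjusted p = 0.000418 and 0.000419, limma). The calmodulin gene Calm2, the most abundant of the list in Sa at 385 ± 68.3 FPKM, against 370 ± 19.6 FPKM in Con, was at 0.04 ± 0.29 (adjusted p = 0.894, limma), and it fell under median-of-ratios scaling (-0.76, adjusted p = 0.0459).

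Receptors for contractile agonists were low. Of 7 tested, 5 rose and none fell in Sa against Con, while 5 rose and 2 fell with median-of-ratios scaling and 4 rose and 2 fell with quantile normalization. The 3 others (Adra1a, Adra1b, Ptgfr) stayed below 1 FPKM in all libraries. The oxytocin receptor gene Oxtr had 4.79, 5.32 and 1.43 FPKM in IMA10, 3.72, 7.32 and 7.86 FPKM in IMC, 4.78, 13.78 and 9.37 FPKM in Sa, and 0.57, 0.44 and 0.56 FPKM in Con. All busulfan libraries were above Con, and Oxtr rose by 2.66 ± 0.43 (adjusted p = 0.000473, limma). The vasopressin receptor gene Avpr1a rose by 1.90 ± 0.33 and the purinergic receptor gene P2rx1 by 1.29 ± 0.26 (adjusted p = 0.00063 and 0.00146, limma).

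Of 10 transcription regulators of smooth muscle genes tested, 8 rose and 1, Klf4, fell, while 7 rose and 2 fell with either other scaling. Srf, which encodes serum response factor, had 28.4 ± 1.36 FPKM in Sa, against 19.8 ± 2.3 FPKM in Con (SD, n = 3). Its difference of 0.50 ± 0.16 (adjusted p = 0.0144, limma) was below the median of all genes, and with median-of-ratios scaling it was -0.27 (adjusted p = 0.118). Mef2d rose by 2.11 ± 0.26, Elk1 by 1.96 ± 0.31 and Fhl2 by 1.91 ± 0.31 (adjusted p = 0.000347, 0.00042 and 0.000509, limma). Klf4, a repressor of smooth muscle genes, fell by 1.62 ± 0.33 (adjusted p = 0.00159, limma). Myocd, which encodes myocardin, the coactivator of serum response factor in muscle, stayed below 1 FPKM in all libraries.

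**Figure D4:**
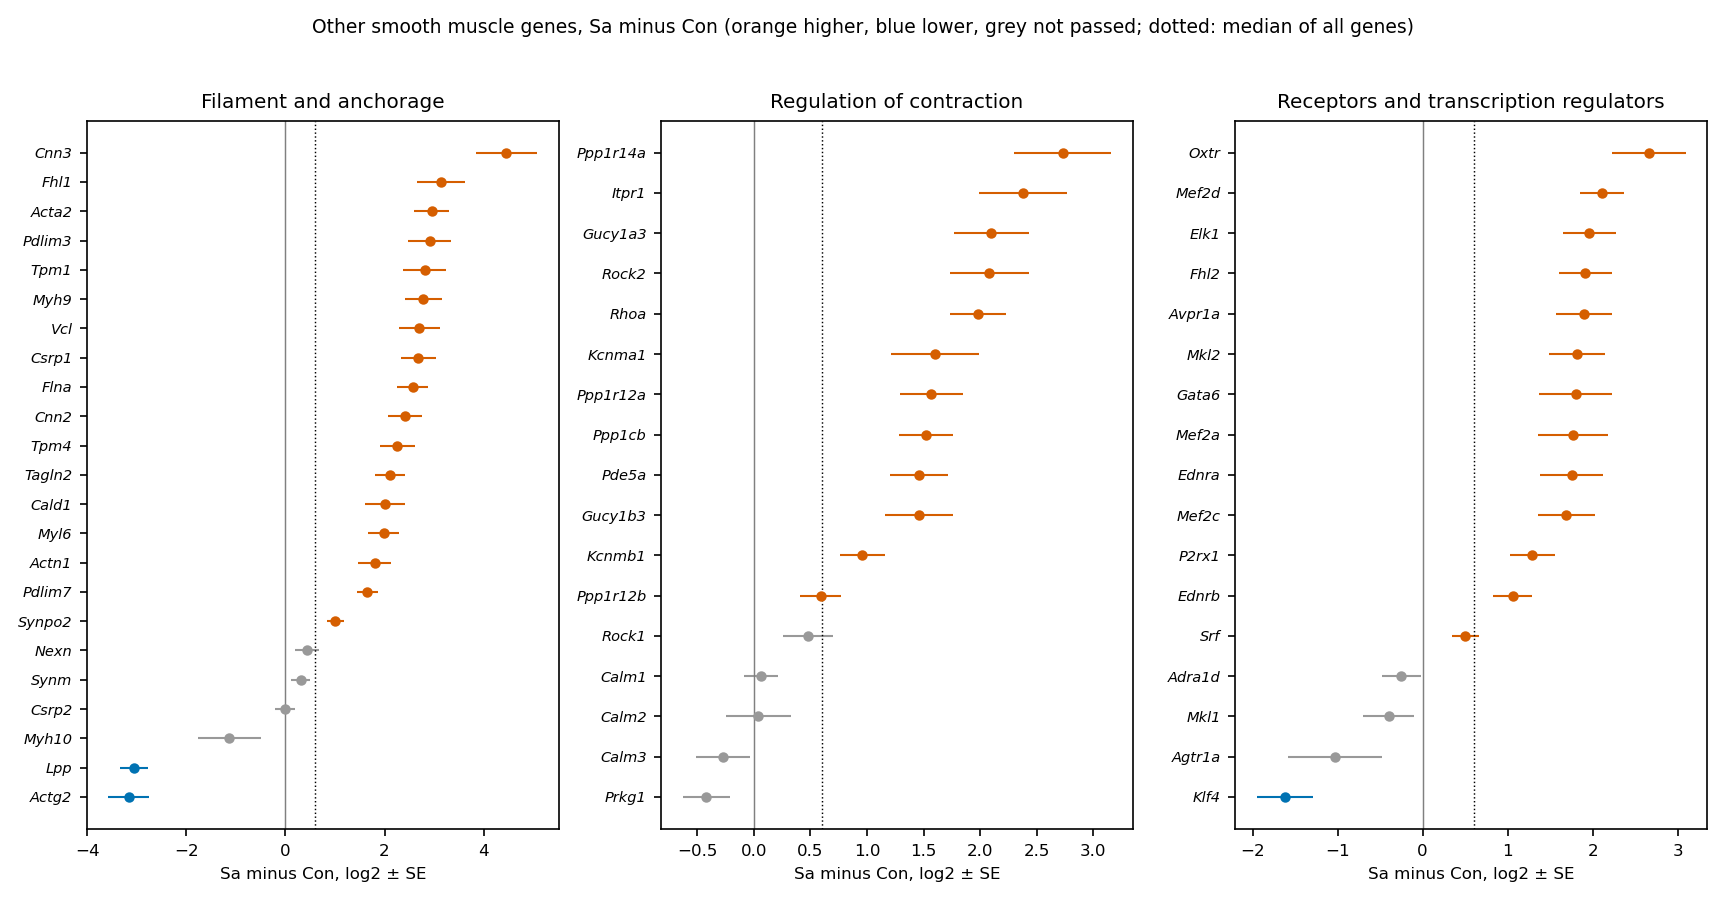
Difference between Sa and Con, in log2(FPKM + 1) with limma's standard error, for genes of the filament, of the regulation of contraction, and for receptors and transcription regulators. Orange genes rose, blue genes fell and grey genes did not pass, and the dotted line is the median of all genes (0.60).

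Among 8 troponin genes, Tnni3 had the highest FPKM in all busulfan libraries. Tnnt2, the cardiac troponin T, had 15.40, 21.34 and 7.56 FPKM in IMA10, 18.87, 18.23 and 13.29 FPKM in IMC, 14.37, 18.78 and 23.65 FPKM in Sa, and 4.07, 3.66 and 4.37 FPKM in Con. It rose by 1.96 ± 0.33 in Sa (adjusted p = 0.000525, limma), and so did Tnnt1, the slow skeletal troponin T, by 1.72 ± 0.29 (adjusted p = 0.000553, limma). Both had all busulfan libraries above all Con libraries. The calcium-binding subunits did not follow: Tnnc1, of heart and slow muscle, stayed below 1 FPKM in all libraries, and Tnnc2, of fast muscle, was at -0.34 ± 0.24 (adjusted p = 0.223, limma). Tnni1 reached at most 1.07 FPKM, and Tnni2 and Tnnt3 stayed below 1 FPKM.

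Of 39 striated muscle genes other than Tnni3, 22 stayed below 1 FPKM in all libraries, among them the defining genes Myod1, Myog, Acta1, Actc1, Ttn, Ckm, Ryr1, Ryr2 and Nppa. Their summed level over the 13 tested was 65.3, 62.3 and 69.2 FPKM in IMA10, 56.6 to 77.1 FPKM in IMC, 65.4 to 76.6 FPKM in Sa and 72.3 to 78.5 FPKM in Con. Of these 13, 9 rose and 3 fell in Sa against Con (median 0.69), while 6 rose and 4 fell with median-of-ratios scaling, and 4 rose and 4 fell with quantile normalization. Besides the troponin T genes, Myoz1, a sarcomere protein of the Z line, rose by 1.82 ± 0.31 (adjusted p = 0.000548, limma). The 3 that fell were Actn2 at -2.14 ± 0.47, Myl4 at -1.64 ± 0.54 and Myh6 at -1.11 ± 0.42 (adjusted p = 0.00221, 0.0202 and 0.0358, limma). Each was also called lower under both other scalings. Tnni3 overlaps Dnaaf3 on the same strand by 1297 bases in GENCODE vM21. Dnaaf3 had 3.70, 4.97 and 40.40 FPKM in IMA10, 9.45, 12.58 and 5.27 FPKM in IMC, 13.93, 10.71 and 8.98 FPKM in Sa, and 44.97, 40.82 and 40.03 FPKM in Con. It was at least 40 FPKM in Con and in IMA10 replicate 3 and below 14 FPKM in the other busulfan libraries, while Tnni3 was lowest in Con. Within Con, both genes were highest in replicate 1 and lowest in replicate 3. The part of the overlap in the Tnni3 level was not tested.

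**Figure D5:**
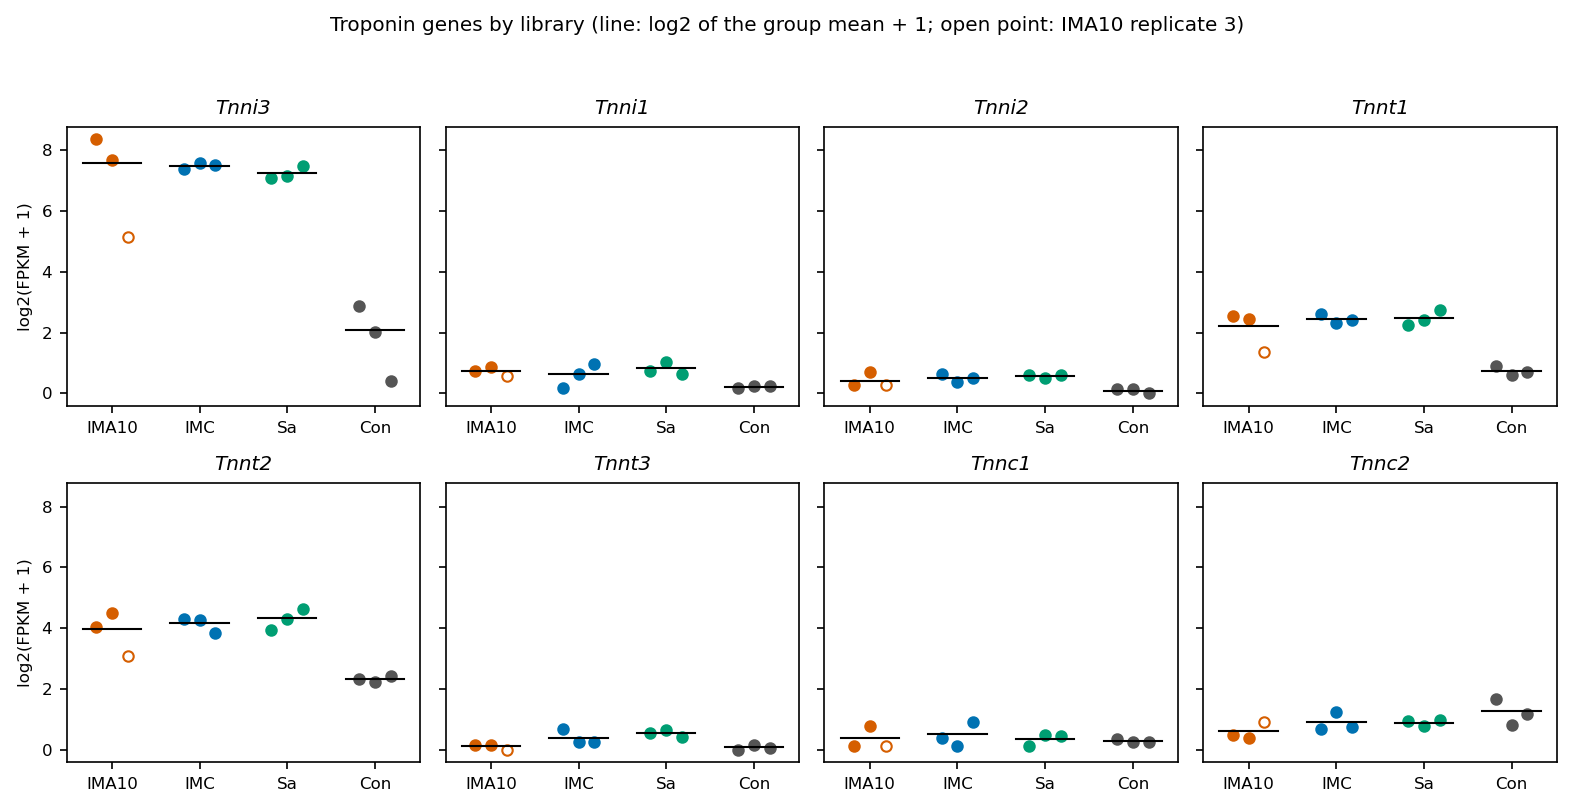
log2(FPKM + 1) of the 8 troponin genes in IMA10, IMC, Sa and Con, with a line at the log2 of the group mean and an open point for IMA10 replicate 3. Tnni3 stands above the other troponins in all busulfan libraries, and Tnnt2 and Tnnt1 have all busulfan libraries above Con.

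Cells other than myoid cells that carry contractile genes were represented too. Of 12 genes of pericytes and vascular mural cells, 11 rose and none fell in Sa against Con, with a median of 1.63, beside 52.0% of all genes called higher and 19.2% lower. With median-of-ratios scaling 11 rose and 1 fell, and with quantile normalization 10 rose and 1 fell. Mcam, an adhesion molecule of mural and endothelial cells, rose by 2.30 ± 0.22 (adjusted p = 0.00013, limma). Abcc9, a subunit of the potassium channel of mural cells, rose by 1.55 ± 0.24, and Cspg4, the NG2 proteoglycan, by 1.35 ± 0.21 (adjusted p = 0.000419 and 0.00042, limma). Of 11 genes of peritubular and interstitial mesenchyme, 8 rose and 2 fell (7 and 2 under both other scalings). Dcn, the proteoglycan decorin, rose by 3.44 ± 0.50 and the growth factor receptor gene Pdgfra by 3.21 ± 0.45 (adjusted p = 0.000362 and 0.000361, limma). All 15 Sertoli, 11 Leydig and 13 macrophage genes tested rose, as did 13 of 14 endothelial genes, and all 13 spermatid genes fell. The Sertoli and spermatid counts were the same under both other scalings. With median-of-ratios scaling 10 Leydig, 12 macrophage and 12 endothelial genes rose and 1 endothelial gene fell, and with quantile normalization 10 endothelial genes rose and 1 fell. Whole-testis RNA does not place the members in 1 of these cell types. Of the genes of the tunica's mesothelium and of the epididymis, 5 of 6 each stayed below 1 FPKM in all libraries, and the single genes tested were Lrrn4, which rose, and Cst11, which did not pass.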

How the data were processed

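FPKM values were used as deposited by the authors, with 12 columns for 12 libraries. No aligner, counting program, genome build, annotation or strandedness is named by the labels or the file headers, so a gene and its overlapping or antisense neighbour cannot be told apart. Antisense transcripts overlap Tagln, Mylk, Des and Smtn in GENCODE vM21. Symbols were attached by NCBI Gene ID through RefSeq (20141 IDs matched).

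Values were analysed as log2(FPKM + 1) for genes that reached 1 FPKM in 3 or more libraries. Limma 3.58.1 in R 4.3.3 fitted 1 mean per group over all 12 libraries with a variance trend, with p-values adjusted by Benjamini and Hochberg's method over 15472 genes and a threshold of 0.05. The script was tested on simulated data. With 3 libraries against 3, an exact permutation test cannot go below 0.1, so none is given.

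The members and all gene lists were chosen with earlier results of these data known. Beside the 10 members, Acta2 and Actg2, the genes named were, in each list, the one highest in Sa and up to 3 with the smallest p in Sa against Con, all troponins, and the 5 genes nearest in profile to the members and to Tnni3. Klf4, Myh10, Actn2, Myl4, Myh6, Dnaaf3, Myl12a, Myl12b and genes below 1 FPKM were added after their values were seen. Alternatives were 2 other scalings, a pseudocount of 0.1, other filters, fits of the compared groups alone, a replicate block and leaving out each library.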

Additional observations from a re-analysis of the deposited data

How the results depend on the processing

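No member passed in IMA10 against Sa, IMC against Sa or IMA10 against IMC under any alternative run, and all 10 members stayed above Con in sign under each of them. Since the members were chosen with their values against Con known, that sign is a description only. The counts over all genes moved more. Genes called lower numbered 2963 in Sa against Con, but 6069 with median-of-ratios scaling, 4514 with quantile normalization and 4736 with only the compared groups fitted. They numbered 3603 in IMC against Con, but 6302 with median-of-ratios scaling, and 3694 in IMA10 against Con, but 5817 with that scaling and 1834 with only the compared groups. In IMC against Sa 1 gene was called higher with a pseudocount of 0.1 and 1 with no filter. In IMA10 against Sa 1 gene was called higher with each of these, and 1 lower with no filter. Tnni3 in IMA10 against Sa was at 0.05 with median-of-ratios scaling. The cause of these shifts was not tested.

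Leaving out 1 library at a time, genes called lower ranged from 1954 to 4623 in Sa against Con, from 2247 to 4964 in IMC against Con and from 2178 to 5401 in IMA10 against Con, each highest without IMA10 replicate 3. In IMA10 against Sa they ranged from 0 to 3801, with 0 to 1138 called higher, and in IMA10 against IMC from 0 to 2. In IMC against Sa, Cnn1 ranged from -0.30 to 0.13, Tagln from -0.26 to 0.03 and Tpm2 from -0.23 to 0.08, each positive without Sa replicate 3. In IMA10 against Sa, Myl9 ranged from -0.68 to 0.42, Smtn from -0.86 to 0.00 and Tnni3 from -0.81 to 0.79. In IMA10 against IMC, Myl9 ranged from -0.87 to 0.23, Lmod1 from -0.53 to 0.14, Mylk from -0.54 to 0.14, Smtn from -0.61 to 0.26 and Tnni3 from -1.07 to 0.54. In these IMA10 comparisons the highest value of each gene was without IMA10 replicate 3.

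Groups share replicate numbers, and 5 of 18 same-numbered pairs had deviations correlated over 0.1 (range -0.77 to 0.55). With 3 libraries per group and IMA10 replicate 3 set apart, this cannot exclude pairing, and the main fit used none. With the replicate number as a block, no gene was called in the comparisons among busulfan groups and the smallest adjusted p of a member in IMA10 against Sa was 0.997 (limma). In Sa against Con 7820 genes were called higher and 2481 lower with the block.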
